A study of Mus musculus with 18 samples.

Results

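The genes described here are 34 stromal transcripts of the mouse, taken by name from the 55401 genes counted in every library. They were 10 collagen chains, 14 other matrix genes, 5 fibroblast genes outside the matrix and 5 mesothelial genes. Of the 34, 33 reached 3 counts in at least 1 library, and Lum, which encodes the small proteoglycan lumican, was dropped with at most 2 counts. RNA sequencing covered 18 libraries in 6 groups of 3, all from cells exposed to LPS (lipopolysaccharide, the endotoxin of bacterial walls, to which macrophages respond) at 5 ng/ml for 6 h. Mut AdSmim30 and Mut AdCtrl were peritoneal macrophages of SMIM30-Mut mice that had been given, 6 h after plating and for 24 h before LPS, an adenovirus overexpressing Smim30 or a control adenovirus. Mut and WT were peritoneal macrophages of SMIM30-Mut and wild-type mice with no virus. siSmim30 and siCtrl were cells of IC-21, an established mouse peritoneal macrophage line from ATCC, transfected for 24 h with siRNA against Smim30 or with control siRNA. All libraries carried the strain C57BL/6J in the labels. Neither the mutated bases nor the insert of the virus stand in the labels, and nothing there says that the 3 libraries of a group came from different mice or dishes. The p-values below therefore measure only the spread between these libraries, which may be technical.

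Collagens are secreted as triple helices and assembled into fibrils, sheets or microfibrils outside the cell, where proteoglycans, glycoproteins and crosslinking enzymes bind and fix them. In most organs fibroblasts are their main source, and the peritoneal cavity is lined by mesothelial cells that sit on a thin collagen layer with fibroblasts beneath. Cells taken from the cavity are mostly leukocytes, and macrophages themselves are not a main source of fibrillar collagen.

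Promoter sequence is shown for 4 members with lower levels in Mut AdSmim30 than in Mut AdCtrl libraries, to set a fibrillar collagen (Col3a1), a collagen-binding protein (Aebp1), a proteoglycan (Bgn) and a growth factor receptor (Pdgfra) beside each other. Each line holds the 250 bases upstream of the RefSeq transcription start in GRCm38.p6, plus strand, 5′ to 3′. They lie at chr1:45311288-45311537 (Col3a1), chr11:5861616-5861865 (Aebp1), chrX:73483351-73483600 (Bgn) and chr5:75152001-75152250 (Pdgfra), outside the annotated spans of these genes. Capitals mark 3 short motifs searched on both strands. The first is TATAAA, called the TATA box. Another, named for its own letters, is the CCAAT box. The last is GGGCGG, called the GC box.
Col3a1: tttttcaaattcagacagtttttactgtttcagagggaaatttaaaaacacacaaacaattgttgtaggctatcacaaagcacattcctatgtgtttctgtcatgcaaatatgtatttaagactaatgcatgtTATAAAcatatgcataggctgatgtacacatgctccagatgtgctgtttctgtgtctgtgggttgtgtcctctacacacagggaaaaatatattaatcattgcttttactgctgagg
Aebp1: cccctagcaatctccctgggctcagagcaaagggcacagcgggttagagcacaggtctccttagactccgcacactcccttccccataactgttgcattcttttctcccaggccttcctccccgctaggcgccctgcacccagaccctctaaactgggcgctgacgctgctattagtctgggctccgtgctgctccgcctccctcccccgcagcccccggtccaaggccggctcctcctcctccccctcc
Bgn: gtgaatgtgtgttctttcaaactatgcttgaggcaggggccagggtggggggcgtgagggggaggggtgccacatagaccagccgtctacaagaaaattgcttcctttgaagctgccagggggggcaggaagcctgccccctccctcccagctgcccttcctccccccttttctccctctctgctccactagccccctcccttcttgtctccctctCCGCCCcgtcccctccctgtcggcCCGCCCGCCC
Pdgfra: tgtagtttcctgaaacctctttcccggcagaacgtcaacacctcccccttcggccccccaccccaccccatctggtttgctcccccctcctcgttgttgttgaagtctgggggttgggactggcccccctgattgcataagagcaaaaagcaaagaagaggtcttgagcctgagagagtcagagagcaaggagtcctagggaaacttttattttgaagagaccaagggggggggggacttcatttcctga
Col3a1 held 1 TATA box, 117 bases upstream of its start. Bgn held 3 GC boxes, read here on the opposite strand and partly overlapping each other, and the windows of Aebp1 and Pdgfra held none of the 3 motifs. A RefSeq window was found for 21 of the 34 members. Among those 21, a TATA box stood in 2 (9.52%), against 12.4% of all 32851 windows. A CCAAT box stood in 4 members (19.0%), against 33.8% of all windows, and a GC box in 10 members (47.6%), against 32.7% of all windows. These matches describe letters in a window and not binding sites.

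Totals ran from 6855245 to 13456857 assigned read pairs per library, at which a floor of 3 counts equals 0.223 to 0.438 counts per 1000000 of the library total (CPM). Ribosomal RNA genes held 0.399 to 1.03% of counts in Mut libraries, 1.74 to 2.49% in WT libraries and 0.195 to 0.484% in the other 4 groups. The targeted gene, listed under its older name 2610001J05Rik, had 51.6 to 55.1 CPM in Mut AdSmim30, 42.1 to 45.9 in Mut AdCtrl, 42.3 to 52.9 in Mut, 44.3 to 50.9 in WT, 8.83 to 12.03 in siSmim30 and 20.02 to 22.5 in siCtrl libraries. It was 0.28 log2 higher in Mut AdSmim30 than in Mut AdCtrl libraries (edgeR's quasi-likelihood test, adjusted p = 0.0052). Against Mut libraries, it differed by 0.08 in Mut AdSmim30 (adjusted p = 0.352) and fell by 0.19 in Mut AdCtrl (adjusted p = 0.0418). On the same scale it differed by 0.01 between Mut and WT libraries (adjusted p = 0.966) and fell by 0.97 in siSmim30 against siCtrl libraries (adjusted p = 6.17e-08). The 15 macrophage markers summed to 12595 to 14388 CPM in the 4 groups of peritoneal cells and to 4549 to 4833 CPM in the 2 groups of IC-21.

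Stromal transcripts were a small share of every library, and their summed level differed between groups. The 34 members together held 168.5, 165.6 and 165.3 CPM in Mut AdSmim30 libraries, against 276.9, 265.2 and 233.1 CPM in Mut AdCtrl libraries. They held 689.5, 738.9 and 731.6 CPM in Mut libraries, against 691.3, 734.1 and 709.7 CPM in WT libraries. In IC-21 they held 119.3, 111.5 and 116.4 CPM with siSmim30, against 108.5, 117.1 and 115.9 CPM with siCtrl. The IC-21 sums were mostly Lox (mean 91.8 CPM with siSmim30 and 93.5 with siCtrl) and Col4a2 (19.8 and 16.7 CPM). Lox also averaged 85.5 CPM in Mut and 91.5 CPM in WT, against 5.16 in Mut AdSmim30 and 5.50 in Mut AdCtrl. No library of the Mut AdSmim30 group reached any Mut AdCtrl library, no virus-treated library reached any Mut or WT library, and the groups overlapped within the other pairs. In these bulk samples, fewer stromal cells and less RNA of the members per cell cannot be told apart. Which cells held the members' RNA was not tested, and Lox and Col4a2 were also counted in the macrophage line, as given above.

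**Figure D1:**
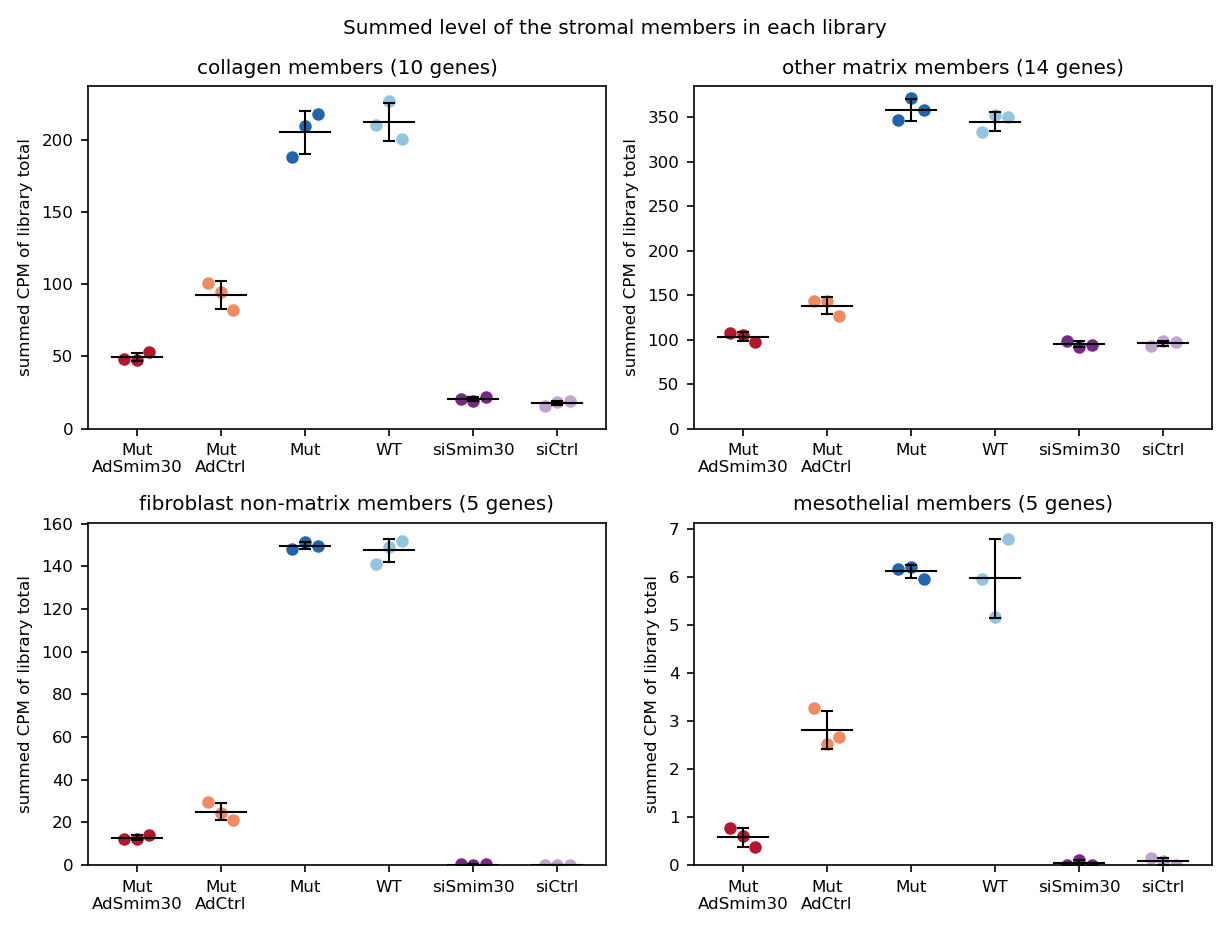
Summed CPM of the library total (y axis) of the collagen, other matrix, fibroblast and mesothelial members in each of the 18 libraries by group (x axis); points are libraries, the line is the mean and the bars are the SD of 3 libraries. The collagen sum was 47.4 to 53.1 CPM in Mut AdSmim30 libraries, 82.1 to 100.7 CPM in Mut AdCtrl libraries, and 188.6 to 227.0 CPM over Mut and WT libraries.

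The classes differed in how far they reached into each group. The collagen sum was 49.7 ± 3.04 CPM in Mut AdSmim30, 92.5 ± 9.50 in Mut AdCtrl, 205.4 ± 15.1 in Mut and 212.8 ± 13.3 in WT (mean ± SD, n = 3 each, as for the sums below). The fibroblast genes summed to 12.8 ± 1.08 CPM in Mut AdSmim30, 25.04 ± 4.03 in Mut AdCtrl, 149.8 ± 1.78 in Mut and 147.5 ± 5.45 in WT. The mesothelial genes summed to 0.579 ± 0.200 CPM in Mut AdSmim30, 2.81 ± 0.396 in Mut AdCtrl, 6.11 ± 0.132 in Mut and 5.96 ± 0.815 in WT. Other matrix genes, led by Fstl1, summed to 103.4 ± 5.00 CPM in Mut AdSmim30, 138.0 ± 9.56 in Mut AdCtrl, 358.7 ± 12.4 in Mut and 345.4 ± 10.6 in WT. As shares of the members' counts, fibroblast genes made up 7.14 to 8.50% in Mut AdSmim30 libraries and 9.15 to 10.6% in Mut AdCtrl libraries, against 20.3 to 21.5% over Mut and WT libraries.

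The class names were borne out unevenly by the members' own counts. Type I and III collagen, Sparc and Pdgfra, which together mark fibroblasts, were each well above the floor in every library of peritoneal cells. The mesothelial class rested on Wt1, a transcription factor of the mesothelium, which had at most 55 counts in a library. Msln, which encodes the mesothelial surface protein mesothelin, had 0, 0 and 0 counts in Mut AdSmim30 libraries, 1, 0 and 0 in Mut AdCtrl, 2, 0 and 0 in Mut and 5, 3 and 4 in WT. Krt19, a keratin of simple epithelia and mesothelium, had at most 4 counts in any library. Thy1, a surface glycoprotein of many fibroblasts, had 4, 0 and 2 counts in Mut AdSmim30 libraries, 2, 1 and 1 in Mut AdCtrl, 0, 5 and 11 in Mut and 0 in all 3 WT libraries. Of the mesothelial members, Wt1 and Upk3b reached 10 counts in a library.

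Levels of different genes were compared per length, in TPM (transcripts per 1000000, computed from counts and exonic length). Fstl1, a secreted glycoprotein, was the highest member in all 4 groups of peritoneal cells, with 45.0 ± 2.82 TPM in Mut AdSmim30, 47.3 ± 1.23 in Mut AdCtrl, 107.3 ± 0.952 in Mut and 80.0 ± 8.33 in WT. Lox, the enzyme that crosslinks collagen and elastin, came next in Mut (58.4 ± 3.61 TPM) and WT (57.7 ± 3.36 TPM). Pdgfrb and Sparc followed, at 30.7 ± 4.41 and 29.9 ± 2.39 TPM in Mut, within their spread, and at 24.5 ± 0.871 and 32.1 ± 1.74 TPM in WT. Col1a1 and Cyp1b1 came after them in both groups. With virus, Sparc and Col1a1 followed Fstl1: Sparc had 9.42 ± 0.952 TPM in Mut AdSmim30 and 19.7 ± 1.51 TPM in Mut AdCtrl, and Col1a1 had 8.95 ± 1.03 TPM in Mut AdSmim30 and 14.5 ± 0.821 TPM in Mut AdCtrl. Their order in Mut AdSmim30 was within the spread.

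The Smim30 virus was compared with the control virus in mutant macrophages, where the level of Smim30 itself differed between the viruses as given above. With the Smim30 virus, 6 of the 10 collagen chains, 4 of 11 tested other matrix genes, 3 of 4 tested fibroblast genes and Wt1 were called lower. Among the tested members that did not pass were Col5a1, Fstl1, Lox and Pdgfrb. Of the 34 members, 26 passed the filter on low counts, and 14 were called lower, 0 higher and 12 neither way (edgeR's quasi-likelihood test, adjusted p below 0.05), beside 0.842% of 12701 genes called lower and 0.583% called higher. Of the 14, 9 were at least 2-fold lower, as were 0.236% of the genes tested. Groups did not overlap, with Mut AdSmim30 lower, for 19 of the 26, beside 7.65% of all genes tested. All 26 fitted log2 fold changes lay below 0, with a median of -0.92 against 0.000227 over all genes. The median was -0.89 for collagens, -0.71 for the other matrix genes and -0.97 for the fibroblast genes. Loxl1 and Wt1 passed the filter through the Mut AdCtrl libraries alone, so that a difference was built into their being tested, and 13 of the other 24 were called lower.

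**Figure D2:**
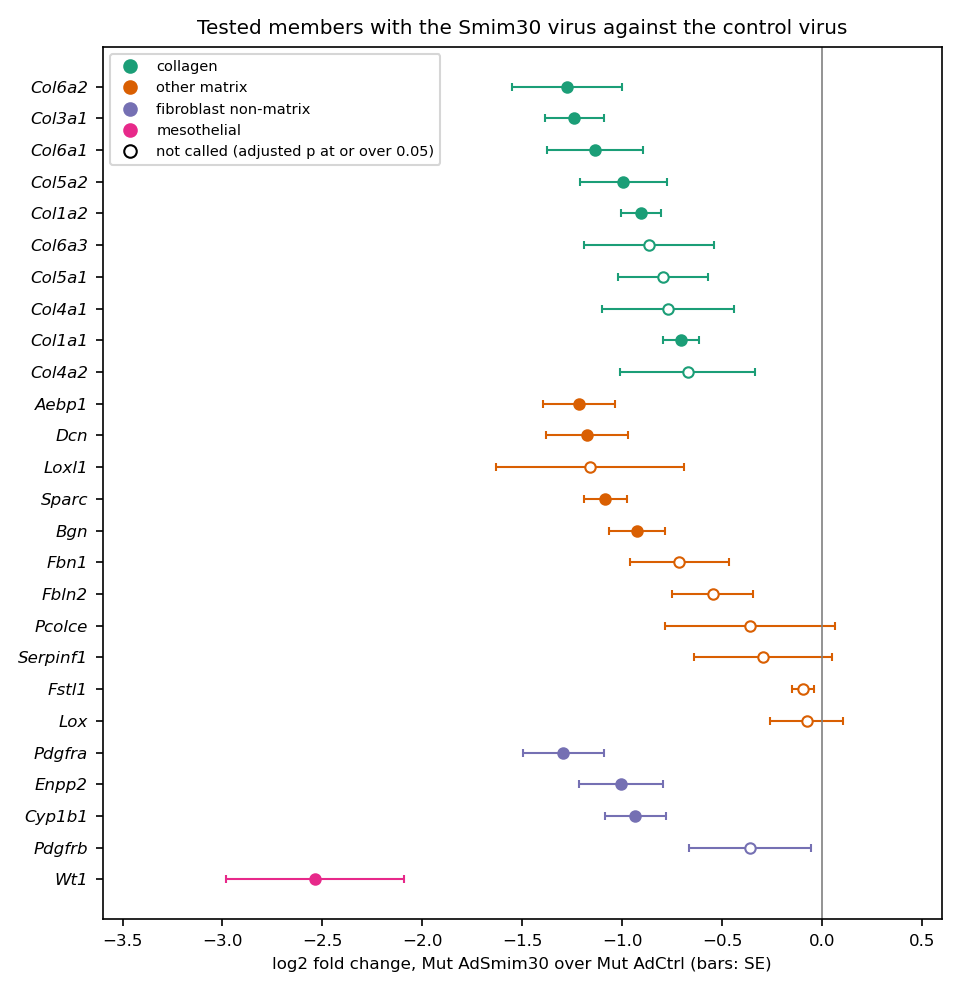
Log2 fold change of Mut AdSmim30 over Mut AdCtrl (x axis, bars are the SE) for the 26 tested members (y axis), coloured by class; filled points passed the test at an adjusted p below 0.05 and open points did not. The 14 filled points run from -0.71 for Col1a1 to -2.54 for Wt1, and Lox, Fstl1 and Pdgfrb lie between -0.08 and -0.36.

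Type I collagen is built from the chains of Col1a1 and Col1a2. Col1a1 had 15.7, 16.5 and 19.1 CPM in Mut AdSmim30 libraries, against 29.2, 29.3 and 25.8 CPM in Mut AdCtrl libraries. Every Mut AdSmim30 library lay below every Mut AdCtrl library, and Col1a1 fell by 0.71 on the log2 scale (SE 0.09, adjusted p = 1.37e-07). Col1a2 had 14.7, 14.2 and 15.2 CPM in Mut AdSmim30 libraries and 30.8, 29.7 and 22.1 CPM in Mut AdCtrl libraries. The groups were again apart, although the third Mut AdCtrl library was nearest to the Mut AdSmim30 ones, and Col1a2 fell by 0.90 (SE 0.10, adjusted p = 6.22e-09). The ratio of Col1a1 to Col1a2 per length was 2.20 ± 0.178 in Mut AdSmim30, 1.96 ± 0.219 in Mut AdCtrl, 1.46 ± 0.0277 in Mut and 1.43 ± 0.0760 in WT (mean ± SD, n = 3 each).

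Col3a1, whose chain forms type III collagen in the same fibrils, had 4.52, 5.22 and 6.09 CPM in Mut AdSmim30 libraries, against 14.01, 11.5 and 12.2 CPM in Mut AdCtrl libraries. Its groups did not overlap, and it fell by 1.24 (SE 0.15, adjusted p = 1.16e-08). Type V collagen, which sets the width of type I fibrils, has chains encoded by Col5a1 and Col5a2. Col5a2 had 2.41, 2.76 and 2.38 CPM in Mut AdSmim30 libraries, against 4.32, 5.70 and 5.21 CPM in Mut AdCtrl libraries, without overlap, and fell by 1.00 (SE 0.22, adjusted p = 0.00386). That call did not hold without Mut AdCtrl replicate 2 (adjusted p = 0.0563) or without Mut AdSmim30 replicate 3 (adjusted p = 0.0608). Col5a1 had 2.89, 2.01 and 2.90 CPM in Mut AdSmim30 libraries and 5.05, 4.16 and 4.23 CPM in Mut AdCtrl libraries, which did not overlap, but its log2 fold change of -0.80 missed the threshold (adjusted p = 0.0506). It passed without Mut AdCtrl replicate 3 (adjusted p = 0.0257) and with library totals alone (adjusted p = 0.0494).

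Type VI collagen forms beaded microfibrils around cells from the chains of Col6a1, Col6a2 and Col6a3. Col6a1 had 2.69, 1.49 and 2.08 CPM in Mut AdSmim30 libraries, against 4.97, 4.74 and 3.83 CPM in Mut AdCtrl libraries, and fell by 1.14 (SE 0.24, adjusted p = 0.00288). Col6a2 had 1.54, 1.79 and 1.56 CPM in Mut AdSmim30 libraries, against 5.38, 4.06 and 2.36 CPM in Mut AdCtrl libraries, and fell by 1.28 (SE 0.27, adjusted p = 0.00328). The Mut AdSmim30 libraries were below all Mut AdCtrl libraries for both chains, and the Mut AdCtrl libraries of Col6a2 were spread more than those of Col6a1. The Col6a1 call was lost without Mut AdSmim30 replicate 2 (adjusted p = 0.0725), and the Col6a2 call without Mut AdCtrl replicate 1 (adjusted p = 0.206) or Mut AdSmim30 replicate 3 (adjusted p = 0.0572). Col6a3 had 1.35, 1.34 and 0.966 CPM in Mut AdSmim30 libraries and 2.61, 1.55 and 2.46 CPM in Mut AdCtrl libraries, a log2 fold change of -0.87 that did not pass (adjusted p = 0.234).

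Type IV collagen, the sheet-forming collagen of basement membranes, is encoded by the neighbouring genes Col4a1 and Col4a2. Col4a1 had 1.35, 1.34 and 0.966 CPM in Mut AdSmim30 libraries (14, 18 and 13 counts, the same as Col6a3) and 1.87, 2.61 and 1.77 CPM in Mut AdCtrl libraries. Col4a2 had 1.35, 0.671 and 1.86 CPM in Mut AdSmim30 libraries and 2.53, 1.45 and 2.16 CPM in Mut AdCtrl libraries. Only Col4a1 was free of overlap between these groups, and neither log2 fold change passed, at -0.77 for Col4a1 (adjusted p = 0.354) and -0.67 for Col4a2 (adjusted p = 0.48). In all, 6 of the 10 collagen members were called lower.

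Sparc, a glycoprotein that binds collagen and cells, had 10.2, 9.54 and 11.4 CPM in Mut AdSmim30 libraries, against 23.4, 23.1 and 19.8 CPM in Mut AdCtrl libraries. The highest Mut AdSmim30 library stood well under the lowest Mut AdCtrl library, and Sparc fell by 1.08 (SE 0.11, adjusted p = 6.86e-11). Aebp1, a secreted protein that binds fibrillar collagen, had 2.98, 3.50 and 3.64 CPM in Mut AdSmim30 libraries, against 7.25, 8.60 and 8.06 CPM in Mut AdCtrl libraries, and fell by 1.22 (SE 0.18, adjusted p = 4.6e-06). The small leucine-rich proteoglycans biglycan (Bgn) and decorin (Dcn), which decorate collagen fibrils, fell as well. Bgn had 6.64, 7.45 and 7.28 CPM in Mut AdSmim30 libraries, against 15.7, 14.7 and 10.2 CPM in Mut AdCtrl libraries, and fell by 0.93 (SE 0.14, adjusted p = 9.18e-06). Dcn had 2.79, 2.76 and 2.23 CPM in Mut AdSmim30 libraries, against 5.70, 6.19 and 5.70 CPM in Mut AdCtrl libraries, and fell by 1.18 (SE 0.21, adjusted p = 0.000149). None of these 4 genes had overlapping groups, and all 4 calls held in every alternative setting that gave them an adjusted p.

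The other 7 tested matrix genes did not pass. Fstl1 had 67.5, 66.8 and 59.2 CPM in Mut AdSmim30 libraries, against 70.7, 70.1 and 65.6 CPM in Mut AdCtrl libraries, with overlap and a log2 fold change of -0.09 (SE 0.06, adjusted p = 0.59). Lox had 4.33, 6.33 and 4.83 CPM in Mut AdSmim30 libraries, against 5.86, 5.51 and 5.11 CPM in Mut AdCtrl libraries, with overlap and a log2 fold change of -0.08 (SE 0.18, adjusted p = 0.941). Fstl1 was thus counted deeply enough to give a small error, and Lox was not a low-count gene in either group. Fbn1, the fibrillin of elastic microfibrils, had 2.27 ± 0.474 CPM in Mut AdSmim30 and 3.68 ± 0.292 CPM in Mut AdCtrl (mean ± SD, n = 3 each), with groups apart and a log2 fold change of -0.71 (adjusted p = 0.161). Fbln2, a fibulin of the same networks, had a log2 fold change of -0.55 (adjusted p = 0.218), and the Lox relative Loxl1, on 4 to 17 counts per library, had -1.16 (adjusted p = 0.306). Pcolce, an enhancer of procollagen processing, and Serpinf1, a secreted serpin, had -0.36 and -0.30, with adjusted p-values of 0.854 and 0.852. Postn, the matrix protein periostin, and Mmp2, a gelatinase, stayed under the filter, with 9, 15 and 9 counts of Postn in Mut AdSmim30 libraries and 5, 9 and 6 in Mut AdCtrl libraries, and 9, 9 and 2 counts of Mmp2 in Mut AdSmim30 libraries and 11, 8 and 7 in Mut AdCtrl libraries.

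Among the fibroblast genes outside the matrix, 3 of 4 tested were called lower. Pdgfra, the receptor for platelet-derived growth factor that marks fibroblasts, had 2.21, 2.83 and 3.05 CPM in Mut AdSmim30 libraries, against 8.15, 6.28 and 5.60 CPM in Mut AdCtrl libraries, and fell by 1.30 (SE 0.20, adjusted p = 1.49e-05). Cyp1b1, a cytochrome P450 enzyme, had 5.29, 5.66 and 5.50 CPM in Mut AdSmim30 libraries, against 12.3, 10.1 and 9.04 CPM in Mut AdCtrl libraries, and fell by 0.93 (SE 0.15, adjusted p = 3.08e-05). Enpp2, which encodes autotaxin, the enzyme that makes lysophosphatidic acid, had 2.60, 2.61 and 3.195 CPM in Mut AdSmim30 libraries, against 6.92, 5.61 and 4.33 CPM in Mut AdCtrl libraries. It fell by 1.00 (SE 0.21, adjusted p = 0.00253), a call that was lost without Mut AdCtrl replicate 1, the highest library (adjusted p = 0.117). These 3 genes had groups that did not overlap. Pdgfrb, the sister receptor found on pericytes and fibroblasts, had 1.54, 1.27 and 2.16 CPM in Mut AdSmim30 libraries, against 1.79, 2.42 and 2.26 CPM in Mut AdCtrl libraries, which overlapped, and its log2 fold change of -0.36 did not pass (SE 0.31, adjusted p = 0.751).

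Wt1 was the only mesothelial member tested. It had 3, 6 and 3 counts in Mut AdSmim30 libraries, against 23, 21 and 19 counts in Mut AdCtrl libraries, or 0.289, 0.447 and 0.223 CPM with the Smim30 virus and 1.87, 2.03 and 1.87 CPM with the control virus. The groups did not overlap, and Wt1 fell by 2.54 (SE 0.45, adjusted p = 0.000149). Since it was tested through the Mut AdCtrl libraries alone, that call gives no support of its own. Upk3b, a uroplakin of the mesothelial surface, had 2, 1 and 1 counts in Mut AdSmim30 libraries and 6, 2 and 3 counts in Mut AdCtrl libraries. Lrrn4, a leucine-rich repeat membrane protein, had 3, 1 and 1 counts in Mut AdSmim30 libraries and 7, 3 and 5 counts in Mut AdCtrl libraries, and both genes were too low to test.

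Genes that neighbour the members in function were described from other lists chosen with earlier results known. Their calls stand beside 0.842% of 12701 genes called lower and 0.583% called higher. Of 5 tested further collagens, 1 was called lower, Col18a1 of basement membranes, at 1.30 ± 0.252 CPM in Mut AdSmim30 and 3.39 ± 0.841 CPM in Mut AdCtrl (mean ± SD, n = 3 each; log2 fold change -1.36, adjusted p = 0.00299). Of 19 tested genes of collagen folding and processing, 2 were called lower: Serpinh1, the collagen chaperone, at -0.91 (adjusted p = 0.0018), and Bmp1, the procollagen C-proteinase, at -1.18 (adjusted p = 0.00735). The median log2 fold change of the 19 was -0.02. Of 14 further matrix glycoproteins and proteoglycans, 3 were called lower, Ccdc80 at -1.14, the perlecan gene Hspg2 at -0.71 and the laminin chain Lamb1 at -2.07 (adjusted p-values of 0.00195, 0.00356 and 0.00756). Of 10 matrix genes known to be induced by TGF-beta in fibroblasts, 1 was called lower, the protease inhibitor Timp3, at -1.52 (adjusted p = 0.00337).

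Markers of other cell types were read beside the 0.583% of all genes called higher and 0.842% called lower. Among 7 tested further fibroblast markers, which include genes that macrophages also express, the cadherin Cdh11 was called lower, at -1.42 (adjusted p = 0.00685), and the actin-severing Gsn higher, at 0.15 (adjusted p = 0.0204). Of 3 further mesothelial, 2 pericyte and smooth muscle, 3 endothelial, 2 B cell, 4 mast cell and granulocyte and 6 cell cycle genes tested, 0 passed in either direction. An unadjusted p below 0.05 was reached by 1, 1, 0, 0, 0 and 0 of them, beside 1332 of 12701 genes. No T or NK cell gene was tested. Of 15 macrophage markers, 4 were called higher and 0 lower: the integrin chain Itgam at 0.27, Adgre1, which encodes the F4/80 antigen, at 0.15, and the complement genes C1qb and C1qa at 0.14 and 0.16. The summed macrophage markers were 13161, 13109 and 13205 CPM in Mut AdSmim30 libraries, against 13228, 13303 and 13212 CPM in Mut AdCtrl libraries. The part of macrophage content or RNA quality in the members' difference was not tested.

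Mutant and wild-type macrophages without virus were compared to ask what the mutation alone does, and their summed stromal levels overlapped. Of the 34 members, 27 passed the filter, and 1 was called higher, 0 lower and 26 neither way, beside 3.68% and 2.62% of 12500 genes called higher and lower. An unadjusted p below 0.05 was reached by 7 of the 27, beside 2246 of 12500 genes, and DESeq2 also called 1 member. The median log2 fold change of the 27 was -0.06, against -0.0057 over all genes. Groups did not overlap, with Mut lower, for 7 of the 27, beside 11.2% of all genes tested.

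Fstl1 was the member called. It had 155, 166 and 165 CPM in Mut libraries, against 120, 134 and 137 CPM in WT libraries. All Mut libraries were above all WT libraries, and Fstl1 rose by 0.30 on the log2 scale (SE 0.06, adjusted p = 0.000564). Mmp2 had 1.26, 1.44 and 1.39 CPM in Mut libraries, against 2.44, 2.46 and 2.41 CPM in WT libraries, on 10 to 27 counts, and Fbln2 had 4.66, 5.99 and 5.14 CPM in Mut libraries, against 8.81, 7.85 and 6.34 CPM in WT libraries. Both had Mut libraries under all WT libraries and neither passed, with log2 fold changes of -0.84 (adjusted p = 0.137) and -0.54 (adjusted p = 0.0873).

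None of the 10 member chains of collagen passed between these genotypes. Of 7 tested further collagens, 1 was called higher, Col27a1, named here after its value was seen (21.3 ± 2.37 CPM in Mut and 14.9 ± 1.11 CPM in WT, SD, n = 3 each, with a log2 fold change of 0.51 and an edgeR adjusted p of 0.00527). Col1a1 had 44.2, 49.0 and 49.8 CPM in Mut libraries, against 50.1, 52.0 and 45.7 CPM in WT libraries, and Col3a1 had 23.8, 28.8 and 32.9 CPM in Mut libraries, against 23.0, 28.2 and 23.5 CPM in WT libraries. Both overlapped, with log2 fold changes of -0.05 (SE 0.07, adjusted p = 0.804) and 0.20 (SE 0.11, adjusted p = 0.35). Pdgfra had 32.0, 40.8 and 36.3 CPM in Mut libraries, against 37.3, 36.3 and 35.7 CPM in WT libraries, a log2 fold change of -0.01 (SE 0.09, adjusted p = 0.973). Sparc and Fbn1 were lower in every Mut library, with log2 fold changes of -0.21 and -0.31, and did not pass (adjusted p-values of 0.152 and 0.129).

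**Figure D3:**
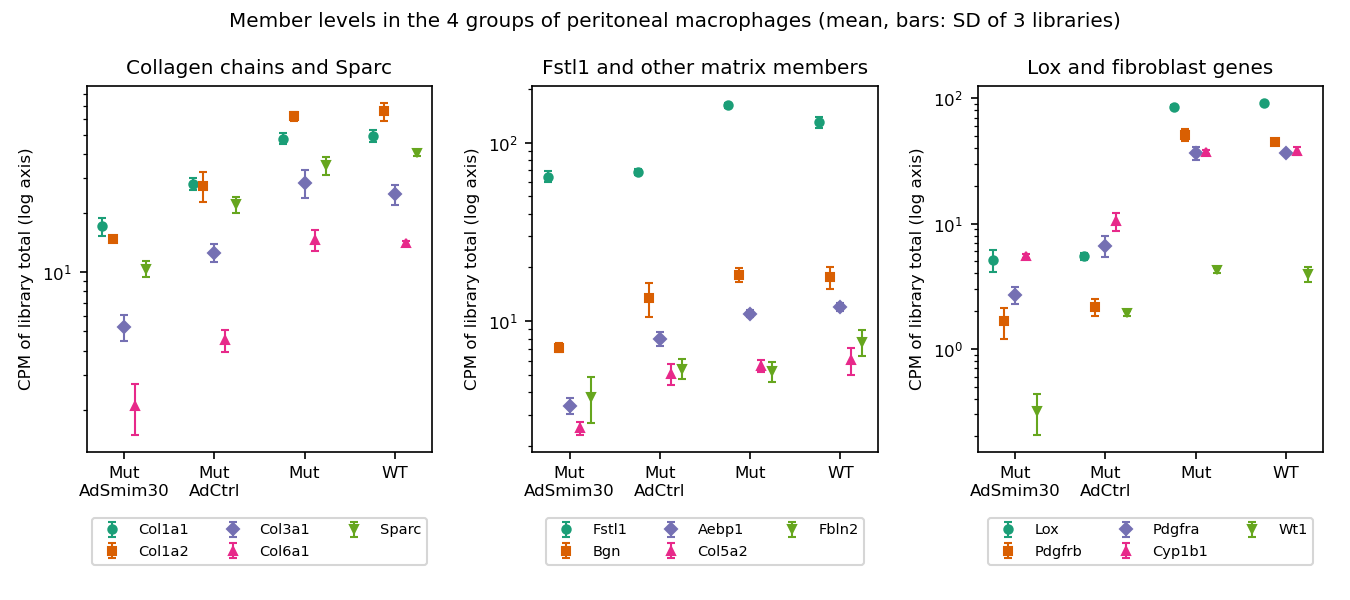
Mean CPM of the library total (y axis, log scale) of 15 members in Mut AdSmim30, Mut AdCtrl, Mut and WT libraries (x axis); bars are the SD of 3 libraries. Lox and Pdgfrb were near 5.50 and 2.16 CPM in Mut AdCtrl and near 85.5 and 51.4 CPM in Mut, whereas Bgn was near 13.5 CPM in Mut AdCtrl and 18.3 CPM in Mut.

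Mut AdCtrl was set against Mut to place the virus-treated groups on the scale of the untreated ones. This comparison mixes the virus, the longer culture that came with it and the part of the series, which cannot be told apart. Of the 34 members, 27 passed the filter, and 23 were called lower, 0 higher and 4 neither way, beside 26.5% of 12798 genes called lower and 27.1% called higher. Their median log2 fold change was -1.27, against -0.00093 over all genes. Mut AdSmim30 against Mut, which shares the Mut libraries with this comparison, had 28 members through the filter, of which 27 were called lower, 0 higher and 1 neither way, beside 28.1% of 12966 genes called lower and 27.2% called higher. Of those 28, Wt1, Loxl1, Mmp2 and Upk3b passed the filter through the Mut libraries alone and so had to differ, which leaves 23 of 24 called lower. In Mut AdCtrl against Mut, Mmp2 passed that way and was not called. In Mut AdSmim30 against Mut, the median log2 fold change of the 28 was -2.41, against -0.01 over all genes. Mut AdCtrl also stands in the comparison of the viruses, so these results are not independent of each other.

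The members differed widely in size. Pdgfrb had 1.54, 1.27 and 2.16 CPM in Mut AdSmim30, 1.79, 2.42 and 2.26 CPM in Mut AdCtrl and 57.9, 46.8 and 49.6 CPM in Mut libraries. It fell by 4.61 in Mut AdCtrl against Mut (SE 0.14, adjusted p = 5.26e-23) and fell by 4.97 in Mut AdSmim30 against Mut (SE 0.14, adjusted p = 7.97e-26). Lox had 87.3, 87.5 and 81.8 CPM in Mut libraries, far over both virus groups given above, and fell by 3.98 in Mut AdCtrl against Mut (SE 0.09) and fell by 4.07 in Mut AdSmim30 against Mut (SE 0.10). For both genes the 2 virus groups lay close together and the Mut libraries apart from them.

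Pdgfra, Enpp2, Cyp1b1 and Wt1 were lower in Mut AdCtrl than in Mut and lower again in Mut AdSmim30. Pdgfra had 32.0, 40.8 and 36.3 CPM in Mut libraries and fell by 2.46 in Mut AdCtrl against Mut and fell by 3.77 in Mut AdSmim30 against Mut. Enpp2 fell by 2.14 in Mut AdCtrl and fell by 3.16 in Mut AdSmim30, Cyp1b1 fell by 1.85 in Mut AdCtrl and fell by 2.79 in Mut AdSmim30, and Wt1 fell by 1.18 in Mut AdCtrl and fell by 3.72 in Mut AdSmim30, each against Mut. The ratio of Pdgfrb to Pdgfra per length was 1.13 ± 0.269 in Mut AdSmim30, 0.615 ± 0.185 in Mut AdCtrl, 2.64 ± 0.619 in Mut and 2.24 ± 0.0863 in WT (mean ± SD, n = 3 each). The ratio was at most 1.29 in the virus-treated libraries and at least 2.10 in the other libraries of peritoneal cells.

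Several matrix genes had smaller differences. Col1a1 fell by 0.80 in Mut AdCtrl and fell by 1.51 in Mut AdSmim30 against Mut, and Sparc fell by 0.70 in Mut AdCtrl and fell by 1.79 in Mut AdSmim30. Aebp1 fell by 0.50 in Mut AdCtrl against Mut (SE 0.15, adjusted p = 0.00451) and fell by 1.73 in Mut AdSmim30 against Mut (SE 0.17, adjusted p = 3.23e-11). Bgn fell by 0.45 in Mut AdCtrl (adjusted p = 0.00658, and 0.0608 without Mut AdCtrl replicate 3) and fell by 1.38 in Mut AdSmim30 (adjusted p = 1.1e-11). Col5a2 had 5.16, 5.88 and 5.88 CPM in Mut libraries and a log2 fold change of -0.20 in Mut AdCtrl against Mut that did not pass (SE 0.19, adjusted p = 0.407), and it fell by 1.20 in Mut AdSmim30 against Mut (adjusted p = 1.06e-05). Fstl1 fell by 1.27 in Mut AdCtrl (SE 0.05) and fell by 1.37 in Mut AdSmim30 (SE 0.05), each against Mut.

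Serpinf1 was the member that passed in neither of these comparisons, with log2 fold changes of 0.38 in Mut AdCtrl (adjusted p = 0.388) and 0.08 in Mut AdSmim30 (adjusted p = 0.867) against Mut. Fbln2 and Mmp2 did not pass in Mut AdCtrl against Mut, at 0.01 and -0.81 (adjusted p-values of 0.971 and 0.0835). Both were called lower in Mut AdSmim30 against Mut, at -0.54 and -1.36 (adjusted p-values of 0.0307 and 0.0115). Those calls were among the least stable: Fbln2 was lost without Mut replicate 2 (0.117), Mut AdSmim30 replicate 2 (0.178) or Mut AdSmim30 replicate 3 (0.105), and Mmp2 without Mut AdSmim30 replicate 3 (0.119, all adjusted p). With DESeq2 both were lost as well (adjusted p = 0.179 for Fbln2 and 0.103 for Mmp2, and 0.0981 and 0.0526 without independent filtering), and Fbln2 also without the filter (adjusted p = 0.0566). The Pcolce call in Mut AdCtrl against Mut (log2 fold change -0.94, adjusted p = 0.0318) was lost without any of the 3 Mut AdCtrl libraries and without Mut replicate 1 or 3, at adjusted p of 0.0508 to 0.176, and also without the filter, with DESeq2 and in the fit of all libraries.

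Macrophage markers moved in both directions in Mut AdCtrl against Mut, with 7 of 15 called higher and 4 lower, beside 27.1% and 26.5% of all genes. Of 12 tested further fibroblast markers, 8 were called lower and 3 higher, and of 15 further matrix glycoproteins and proteoglycans, 11 were called lower and 1 higher. The summed macrophage markers were 13212 to 13303 CPM in Mut AdCtrl libraries and 12595 to 13111 CPM in Mut libraries.

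The IC-21 line has no tissue around it and served here to read the members in macrophages grown as a line. Of the 34 members, 17 had 0 counts in all 6 IC-21 libraries, 10 had 1 to 9 counts over the 6 libraries together, and 7 had 10 or more. The 7 were Lox, Col4a2, Mmp2, Pcolce, Col4a1, Fstl1 and Serpinf1. Pdgfra, Sparc, Dcn, Bgn, Aebp1, Enpp2, Cyp1b1 and Wt1 were among those at 0, which allows up to 3 counts per library, or 0.250 to 0.438 CPM with siCtrl.

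Between siSmim30 and siCtrl, 3 members passed the filter and 0 were called (edgeR's quasi-likelihood test), beside 3.48% of 13576 genes called in either direction. DESeq2 also called 0, but it gave an adjusted p to only 1 of 17 members. Without independent filtering it called 0 of 3. With edgeR, an unadjusted p below 0.05 was reached by 1 of the 3, beside 1927 of 13576 genes. Col4a2 had 19.5, 18.4 and 21.4 CPM in siSmim30 libraries, against 14.3, 17.8 and 17.8 CPM in siCtrl libraries. All siSmim30 libraries were above all siCtrl libraries, and the log2 fold change of 0.24 (SE 0.11) had a p of 0.038 before and 0.308 after adjustment. Lox had 94.3, 89.1 and 91.9 CPM in siSmim30 libraries, against 90.4, 95.9 and 94.2 CPM in siCtrl libraries, with a log2 fold change of -0.02 (SE 0.05, adjusted p = 0.947). Mmp2 had 2.51, 1.82 and 1.74 CPM in siSmim30 libraries, against 1.17, 1.25 and 1.504 CPM in siCtrl libraries, on 8 to 21 counts, with a log2 fold change of 0.64 (SE 0.36, adjusted p = 0.44). Lox overlapped between the groups, and Col4a2 and Mmp2 did not.

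**Figure D4:**
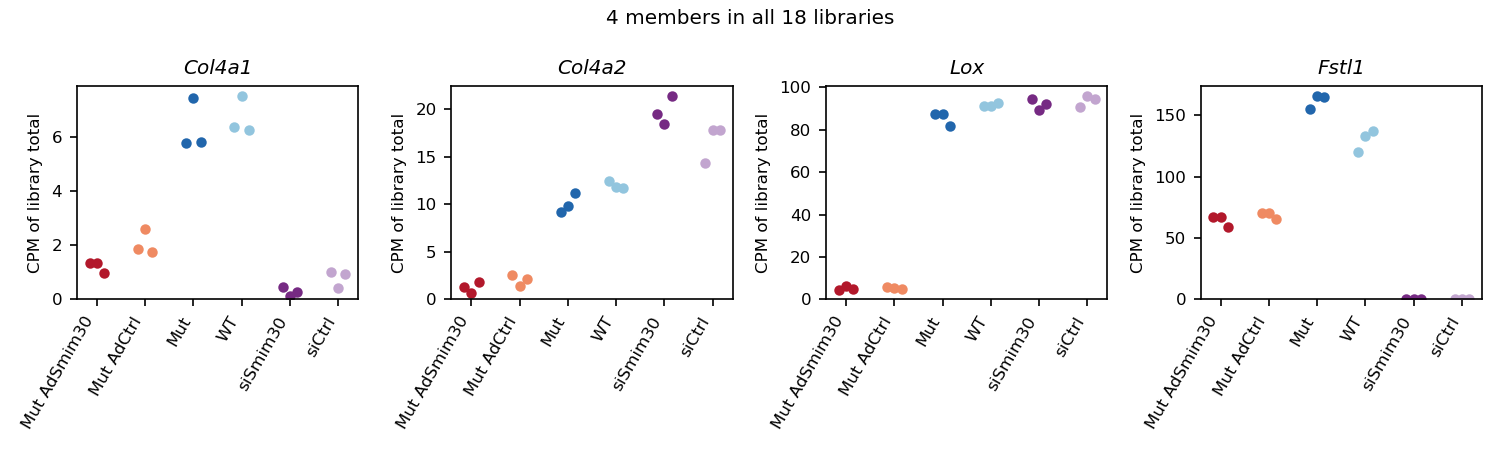
CPM of the library total (y axis, from 0) of Col4a1, Col4a2, Lox and Fstl1 in each of the 18 libraries (points) by group (x axis). In siCtrl libraries Lox lay at 90.4 to 95.9 CPM, near the WT libraries, and Fstl1 at 0 to 0.438 CPM, whereas WT libraries held 120 to 137 CPM of Fstl1.

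siCtrl cells were also set against WT macrophages, a comparison in which cell source, transfection and part of the series cannot be told apart. Of 25 members through the filter, 22 passed through the WT libraries alone and so had to differ, and 24 were called lower and 1 neither way, beside 40.2% of 14066 genes called lower. That leaves 2 of 3 called lower, Lox and Mmp2. The Lox call was lost with library totals alone (edgeR adjusted p = 0.525). On library totals, Col1a2, with 0 counts in siCtrl and 1894 in WT libraries, was at least 190-fold lower in siCtrl, taking 3 counts per library as the floor, and at least 311-fold lower with composition scaling. On library totals the bound was 117-fold for Sparc, 106-fold for Pdgfra and 111-fold for Cyp1b1, and it ran from 1.20 to 190 over the 17 members at 0 in siCtrl and above the floor in WT. Col1a1, with 2 counts in siCtrl and 1428 in WT libraries, was 673 times as high in WT on library totals (95% counting interval 186 to 5565).

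Lox and Col4a2 had levels in IC-21 nearer to those of Mut and WT libraries than to those of both virus groups. Lox had 90.4, 95.9 and 94.2 CPM in siCtrl libraries, against 91.0, 90.8 and 92.6 CPM in WT libraries, which overlap. The composition scaling used for the fit moved the median of all genes by 0.70 on the log2 scale in this comparison. With it Lox fell by 0.67 in siCtrl against WT (SE 0.05, adjusted p = 3.22e-15), whereas with library totals alone its log2 fold change was 0.04 (adjusted p = 0.525). Col4a2 had 14.3, 17.8 and 17.8 CPM in siCtrl libraries, against 12.4, 11.8 and 11.7 CPM in WT libraries, and its log2 fold change was -0.21 with composition scaling (adjusted p = 0.129) and 0.49 with library totals alone (adjusted p = 0.000703), so that the direction of both genes turns with the scaling.

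Col4a1 did not follow Col4a2 in the line. Col4a1 had 4, 1 and 2 counts in siSmim30 libraries and 7, 5 and 8 counts in siCtrl libraries, where Col4a2 had 163, 162 and 160 counts with siSmim30 and 98, 214 and 154 counts with siCtrl. The annotated start sites of these genes lie on opposite strands of chromosome 8, 21 bases apart, with Col4a1 on the minus strand (chr8:11198423-11312826 in GRCm38) and Col4a2 on the plus strand (chr8:11312805-11449287). The ratio of Col4a1 to Col4a2 per length was 0.0128 ± 0.00827 in siSmim30, 0.0434 ± 0.0214 in siCtrl, 1.04 ± 0.670 in Mut AdSmim30, 0.993 ± 0.523 in Mut AdCtrl, 0.562 ± 0.104 in Mut and 0.497 ± 0.0572 in WT (mean ± SD, n = 3 each). The ratio was at most 0.0633 in the IC-21 libraries and at least 0.455 in the libraries of peritoneal cells, and it does not depend on library scaling. The counting used strand, so reads of the short overlap at the starts can be told apart by strand.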

How the data were processed

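RNA sequencing counts of 18 libraries in 6 groups of 3 were used, with groups taken from the sample titles. What the authors deposited are unnormalized counts, 1 per gene, of the read pairs that featureCounts 2.0.3 assigned to its exons in reverse-stranded mode. GENCODE M25 for GRCm38 was the annotation, per the file headers. Reads were handled with fastp, FastQC and HISAT2, per the submitters' processing notes. A symbol from the GENCODE M21 and name tables was found for 55141 of 55401 identifiers. The row named 2610001J05Rik, an older symbol, was read as Smim30.

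The 34 members, the other lists and the tests were chosen with earlier results of these data known. The text names every member, up to 4 genes per other list by lowest adjusted p among those with a mean of at least 1 CPM, and up to 15 unlisted genes called at least 2-fold lower with the Smim30 virus. CPM is the count per 1000000 of the library total, and TPM was computed with the deposited exonic length. A separate edgeR 4.0.16 fit (R 4.3.3) on the 6 libraries of each comparison used filterByExpr, scaling by trimmed mean of M-values (TMM) and robust quasi-likelihood F tests. Their p-values were adjusted by Benjamini and Hochberg's method over all genes tested, with a threshold of 0.05. With 3 libraries against 3 an exact permutation test cannot go below 0.1, so none was used. Non-overlap of groups was judged on the scaled values. The fits were tested on simulated data. Alternatives were scaling by relative log expression, library totals alone, no filter, DESeq2 1.42.0, a block for replicate number, 1 joint fit of the 18 libraries and each library left out in turn. DESeq2 without independent filtering was added after seeing the data. Counting noise alone was exceeded between replicates in every group (chi-square per gene 1.67 to 5.24). Intervals and floors cover counting error only. The start and end of each gene follow GRCm38, and the promoter sequences are those of RefSeq for GRCm38.p6. Python 3.11.15, pandas 2.3.3, scipy 1.17.1 and matplotlib 3.10.9 were used for tables and figures.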

Additional observations from a re-analysis of the deposited data

How the results depend on the processing

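The counts of members called were the same or close in most alternative settings. With replicate number as a block they were 15, 1, 23, 27, 0 and 24, against 14, 1, 23, 27, 0 and 24 without it, for Mut AdSmim30 against Mut AdCtrl, Mut against WT, Mut AdCtrl against Mut, Mut AdSmim30 against Mut, siSmim30 against siCtrl, and siCtrl against WT. Libraries with the same number did not deviate together (correlations of -0.14 to 0.0884), so no pairing by number was seen. Counting noise could hide a weak pairing, so this check cannot exclude one. The block gave the one gained call, Col5a1 with the Smim30 virus (adjusted p = 0.0424). Leaving out each library in turn gave 12 to 15, 1 to 1, 22 to 23, 25 to 27, 0 to 0 and 24 to 25 members called, in the same order of comparisons. In Mut against WT, 2 members were called without the filter, the second being Thy1 on 16 counts. In siCtrl against WT, the 24 became 31 without the filter, 30 with DESeq2 and 27 in the fit of all 18 libraries, where 32, 32 and 28 members were tested. DESeq2 gave no adjusted p to any of the 34 members for the Smim30 virus, and without independent filtering it called 14 lower. With TMM over all 18 libraries, the summed levels were 197, 304, 851, 846, 82.9 and 81.3 CPM in Mut AdSmim30, Mut AdCtrl, Mut, WT, siSmim30 and siCtrl, against 166, 258, 720, 712, 116 and 114 CPM on library totals. Leaving out 1 library gave 165.4 to 167.0, 249.1 to 271.1, 710.6 to 735.3, 700.5 to 721.9, 114.0 to 117.8 and 112.2 to 116.5 CPM. In siCtrl against WT, library totals alone gave the opposite sign for Col4a2 (log2 fold change 0.49) and Lox (0.0363).

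Over single members, 6 of 310 gene and setting pairs lost a call and 3 gained one for the Smim30 virus, 10 of 351 lost one in Mut AdCtrl against Mut and 9 of 364 in Mut AdSmim30 against Mut. Genes below the threshold in both fits were counted as kept, whatever their sign. The background counts moved more: for the Smim30 virus 181 genes were called, against 68 to 87 with DESeq2 without independent filtering or the fit of all libraries, 67 with DESeq2, 253 with the block, 66 without Mut AdSmim30 replicate 3, 106 without Mut AdSmim30 replicate 2, 82 without Mut AdCtrl replicate 1 and 453 without Mut AdCtrl replicate 3. In Mut against WT, 788 became 1198 in the fit of all libraries and 469 without Mut replicate 2. In siSmim30 against siCtrl, 472 became 282 with DESeq2 (243 without independent filtering), 263 in the fit of all libraries and 309 without siCtrl replicate 2. The cause was not tested. Depth limits the mesothelial members, Thy1, Postn and Loxl1, which had 34 counts or fewer in any library except Wt1.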

Other observations

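Members made up a large part of the strongest decreases with the Smim30 virus. Of 30 genes called at least 2-fold lower in Mut AdSmim30 than in Mut AdCtrl libraries (0.236% of 12701 tested), 9 were members (30.0%), 6 stood on another list and 15 on none, and 0 genes were called at least 2-fold higher. Of all 107 genes called lower, 14 were members (13.1%). Among the 12701 genes tested, 26 were members. Wt1, tested through the Mut AdCtrl libraries alone, is in both counts of members. Lamb1, tested in the same way, is among the 6 on another list. The 15 genes on no list were named by rule. Fndc1, a secreted protein with fibronectin repeats, averaged 1.23 ± 0.239 CPM in Mut AdSmim30 and 4.198 ± 0.550 CPM in Mut AdCtrl (SD, n = 3 each) and fell by 1.78 on the log2 scale (edgeR's quasi-likelihood adjusted p = 1.47e-05). Tead1, a transcription factor of the Hippo pathway, averaged 1.08 ± 0.483 CPM in Mut AdSmim30 and 2.79 ± 0.752 CPM in Mut AdCtrl and fell by 1.34 (adjusted p = 0.0124). C1s1, which encodes a complement protease, fell by 1.42 (adjusted p = 0.0157), and Slit3, a secreted guidance protein, by 1.23 (adjusted p = 0.0477). Wnt4, a secreted signalling protein, fell by 2.25 (adjusted p = 0.0171) on 8 counts over the Mut AdSmim30 libraries and 35 over the Mut AdCtrl libraries. The others were Adgrd1, Ptpn13, Arhgef17, Syde1, Spsb1, Steap4, Mex3b, Nfib, Tshz2 and Dclk1, which fell by 1.05 to 2.30. Wnt4, Ptpn13, Tshz2, Spsb1, Syde1 and Adgrd1 averaged 0.213 to 0.614 CPM in Mut AdSmim30, under the filter's cut-off of 0.882 CPM. Their Mut AdCtrl means were over it, so a difference was built into their being tested. Those calls give no support of their own. Mex3b, Arhgef17 and C1s1 averaged 0.760 to 0.870 CPM in Mut AdSmim30, nearer that cut-off.

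Of these 15 genes, 11 were also called lower in Mut AdCtrl against Mut, 0 higher and 4 neither way (Wnt4, Syde1, Mex3b and Tshz2). Of all 12798 genes tested there, 26.5% were called lower and 27.1% higher. The comparison of the viruses and that of Mut AdCtrl against Mut share the Mut AdCtrl libraries. In IC-21 cells with siCtrl, 12 of the 15 had 3 counts or fewer over the 3 libraries, a share not counted for all genes. The exceptions were Spsb1, with 8 counts, and Syde1 and Nfib, with 13.98 ± 1.73 and 122.7 ± 2.52 CPM in siCtrl libraries, against 1.59 ± 0.255 and 7.52 ± 0.744 CPM in WT libraries.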
